A study of Mus musculus with 34 samples.

Results

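Heat shock chaperones are proteins that help other proteins fold, keep them from clumping and hand them to degradation when they cannot be saved. The set described here is 10 genes chosen by symbol: Hspa1a, Hspa1b, Hspa8, Hsp90aa1, Hsp90ab1, Hsph1, Dnajb1, Hsf1, Hsf2 and Hspd1. They were found among 49686 gene rows of the zygote table, 49686 of the late 2-cell table and 51734 of the blastocyst table, and all 10 were present in each. Hspa1a and Hspa1b were chosen as markers of early transcription from the embryo's own genome, and Hsp90aa1 because it was lower in R442Q zygotes. The comparison of genotypes in zygotes therefore chose members and is given for all 10 genes as a description, without a test.

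The study injected mouse zygotes with mRNA for CHK1, the kinase of the DNA damage checkpoint encoded by Chek1, in its wild-type (WT) form or with the substitution written R442Q. Zygotes numbered 5 with WT and 6 with R442Q mRNA, and late 2-cell embryos 4 and 5, none of them with inhibitor. Blastocysts numbered 7 for each mRNA, and all had been given 30 nM of a CHK1 inhibitor. The genotype word thus names the injected mRNA, which acts on top of the embryo's own Chek1 gene, and the strain and age of the animals are not given in the sources used here. Each of the 34 libraries was 1 embryo, amplified by SMART-seq2, a full-length cDNA method that keeps no strand, and cut with Tn5 for sequencing. Whether embryos shared a mother or an injection day is not given, so each spread below is the spread between embryos.

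In the cytosol, HSP70 proteins bind unfolded stretches in cycles driven by ATP. J-domain proteins such as DNAJB1 bring them clients, HSP110 proteins such as HSPH1 release the spent nucleotide, and HSP90 proteins then finish and hold many kinases and receptors. The heat shock factors HSF1 and HSF2 bind repeats of GAA and TTC in promoters and turn these genes on. In mouse embryos, the inducible HSP70 genes are known as some of the earliest genes transcribed after fertilization, without any heat, and maternal HSF1 is known to be needed for the embryo to get past its earliest cleavages.

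Hspa1a (ENSMUSG00000091971.3, GRCm38 chromosome 17, 34969190 to 34972156, minus strand) and Hspa1b (ENSMUSG00000090877.3, chromosome 17, 34956436 to 34959238, minus strand) are neighbouring genes for the stress-inducible HSP70. Their promoters are printed because the pair was chosen for early activation and because the copies share much of their sequence. Each line holds the 250 bases before the RefSeq start site (GRCm38.p6, chr17:34972157-34972406 and chr17:34959239-34959488), read 5′ to 3′ on the minus strand. Capitals mark a heat shock element of 2 units, GAA and TTC in either order with any 2 bases between them, which reads the same on both strands.
Hspa1a: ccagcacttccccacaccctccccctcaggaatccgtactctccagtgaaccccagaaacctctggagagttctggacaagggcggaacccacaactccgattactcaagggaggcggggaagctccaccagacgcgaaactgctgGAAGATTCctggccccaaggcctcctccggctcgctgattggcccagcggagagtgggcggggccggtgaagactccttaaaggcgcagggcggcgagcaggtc
Hspa1b: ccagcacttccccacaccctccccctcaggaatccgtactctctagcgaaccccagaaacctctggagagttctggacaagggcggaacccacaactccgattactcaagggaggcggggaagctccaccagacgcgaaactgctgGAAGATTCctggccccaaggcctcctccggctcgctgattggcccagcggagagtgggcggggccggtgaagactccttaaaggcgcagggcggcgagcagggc
The printed stretches differed at 3 of 250 bases. Both held GAAGATTC, which began 104 bases before the start. Of 32851 RefSeq promoter windows of 300 bases (250 before and 50 after the start), 15.1% held an element of 2 units and 0.603% one of 3 units (GAA, TTC and GAA or TTC, GAA and TTC, each spaced by any 2 bases, on either strand, which contains elements of 2 units). RefSeq windows matched 6 of the 10 genes, namely Hspa1a, Hspa1b, Hsph1, Dnajb1, Hsf2 and Hspd1, with 9 windows in all. Elements of 3 units were found for 2 of them, Hsph1 (TTCTGGAAAGTTC, after the start) and Hspd1 (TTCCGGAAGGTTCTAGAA, beginning 144 bases before one of its start sites). The windows of Dnajb1 and Hsf2 held neither form. These letters are a description of the windows and not evidence of binding.

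Within their transcripts, 66.3% of the 50-base stretches of Hspa1a and 62.3% of those of Hspa1b also occurred in another gene, mostly in each other. How the authors' estimated counts were divided between them is therefore uncertain, and Hspa1a also lies opposite the gene Gm20481, whose reads cannot be separated without strand. In the 5 WT zygotes, between 30.2% and 55.8% of the counts of the pair were assigned to Hspa1a. The 6 R442Q zygotes ranged from 0% to 100%, on only 12.4 to 42.9 counts for the pair in each embryo. In late 2-cell embryos the share was 98.1% to 99.9% in WT and 89.0% to 100% in R442Q. The assigned share thus moved from mixed or unstable in zygotes to nearly all Hspa1a a cell cycle later, in both genotypes.

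**Figure D1:**
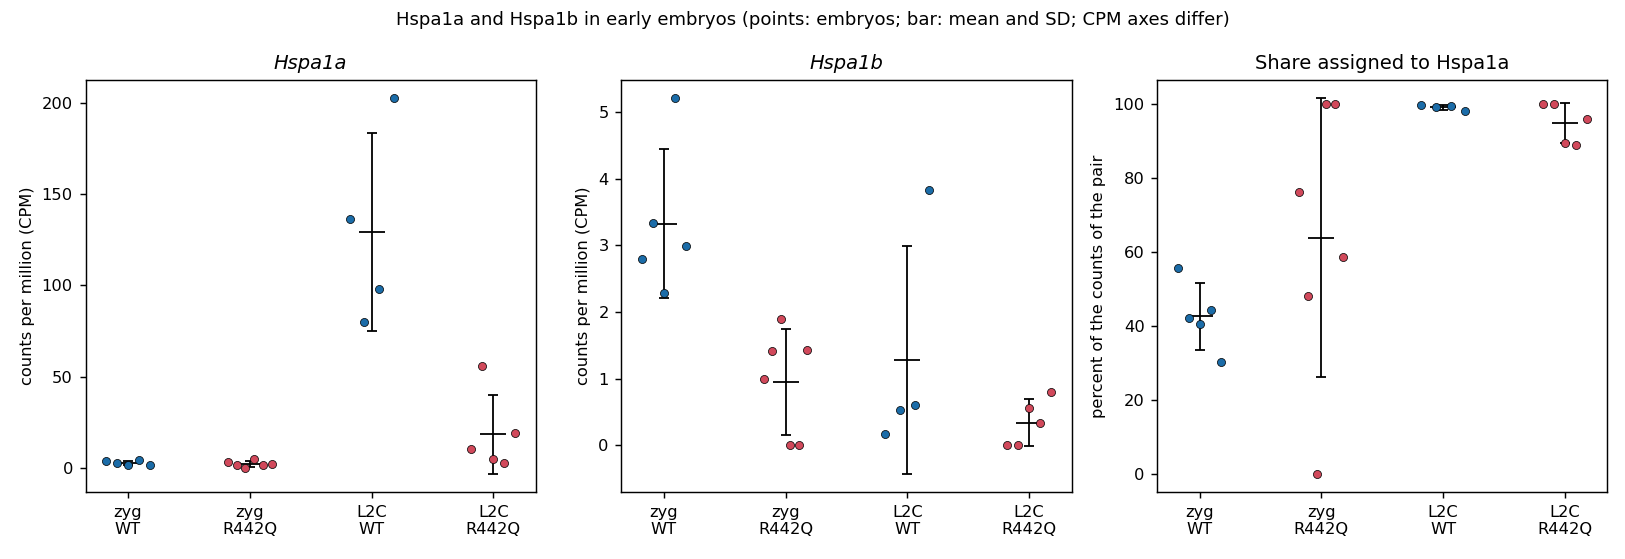
CPM of Hspa1a and of Hspa1b, and the percent of the pair's counts assigned to Hspa1a, in each zygote (zyg) and late 2-cell embryo (L2C), with the mean and SD of each group (blue WT, red R442Q). The 4 WT late 2-cell embryos lie between 79.7 and 203 CPM for Hspa1a, above the 5 R442Q embryos at 2.70 to 55.6 CPM.

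Hspa1a was near the bottom of the measurable range in zygotes and high in WT late 2-cell embryos. In CPM (estimated counts scaled to the embryo's total count), the 5 WT zygotes held 3.52, 2.41, 1.56, 4.12 and 1.30, and the 6 R442Q zygotes 3.17, 1.31, 0, 4.99, 1.32 and 2.03. The embryo at 0 had a floor of 0.317 CPM, the value of 3 counts, which covers counting error only. The 4 WT late 2-cell embryos then held 137, 79.7, 98.3 and 203 CPM. The 5 R442Q late 2-cell embryos held 10.01, 55.6, 4.83, 2.70 and 18.8 CPM, so that all 5 lay below every WT embryo, with replicates 3 and 4 in the range of the zygotes. On the log2 scale, the modelled change from zygote to late 2-cell was 5.60 ± 0.82 (SE) in WT and 2.91 ± 0.69 in R442Q embryos, given without a test because Hspa1a was chosen as an activation marker. With Hspa1b and the other rows that share sequence added in, the changes were 4.33 and 2.26.

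At the late 2-cell stage Hspa1a fell in R442Q against WT embryos (log2 difference -2.72 ± 0.69 (SE), edgeR quasi-likelihood test, adjusted p = 0.0422). The mean was 129 ± 54.3 CPM (SD, n = 4) in WT and 18.4 ± 21.7 CPM (n = 5) in R442Q. The call was close to the threshold: it was lost in 8 of the 9 fits that left out 1 embryo, all except the one without R442Q replicate 2, with the highest adjusted p at 0.130 without WT replicate 4. It was also lost when a trend of each library with gene length and GC content was removed (log2 difference -1.69, adjusted p = 0.201). Over 17 alternatives without a replicate block the adjusted p ran from 0.000198 to 0.201, and each of them placed R442Q lower.

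Hspa1b stayed low throughout. WT zygotes held 3.32 ± 1.12 CPM (SD, n = 5) and R442Q zygotes 0.956 ± 0.795 (n = 6), with 2 R442Q zygotes at 0 counts and floors of 0.349 and 0.320 CPM. The ranges of the genotypes did not overlap (2.29 to 5.20 against 0 to 1.90 CPM), and the described log2 difference was -1.69 ± 0.69 (SE). It was -0.70 after the counts of the rows sharing sequence were added. For Hspa1a and Hspa1b added together the zygote ranges overlapped, at 3.85 to 9.32 CPM in WT and 1.32 to 4.99 in R442Q. Hspa1b passed the filter on counts in zygotes through its WT embryos. In late 2-cell embryos the means were 1.28 ± 1.71 CPM in WT and 0.341 ± 0.353 in R442Q, too low to pass the filter on counts, and the described stage change was -1.41 ± 1.16 (SE) in WT and -1.65 ± 1.10 in R442Q.

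In blastocysts only FPKM was used (fragments normalised to transcript length and library size), and Hspa1a varied widely between embryos of 1 genotype. WT blastocysts ran from 0 to 63.2 FPKM with a median of 3.68, and R442Q blastocysts from 0 to 3.70 with a median of 0.550. In each genotype 2 of the 7 embryos were listed at 0. Blastocyst WT replicate 2 held the highest value, 63.2 FPKM, and the next embryo 14.5. Neither Hspa1a nor Hspa1b passed the filter for a test at this stage.

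**Figure D2:**
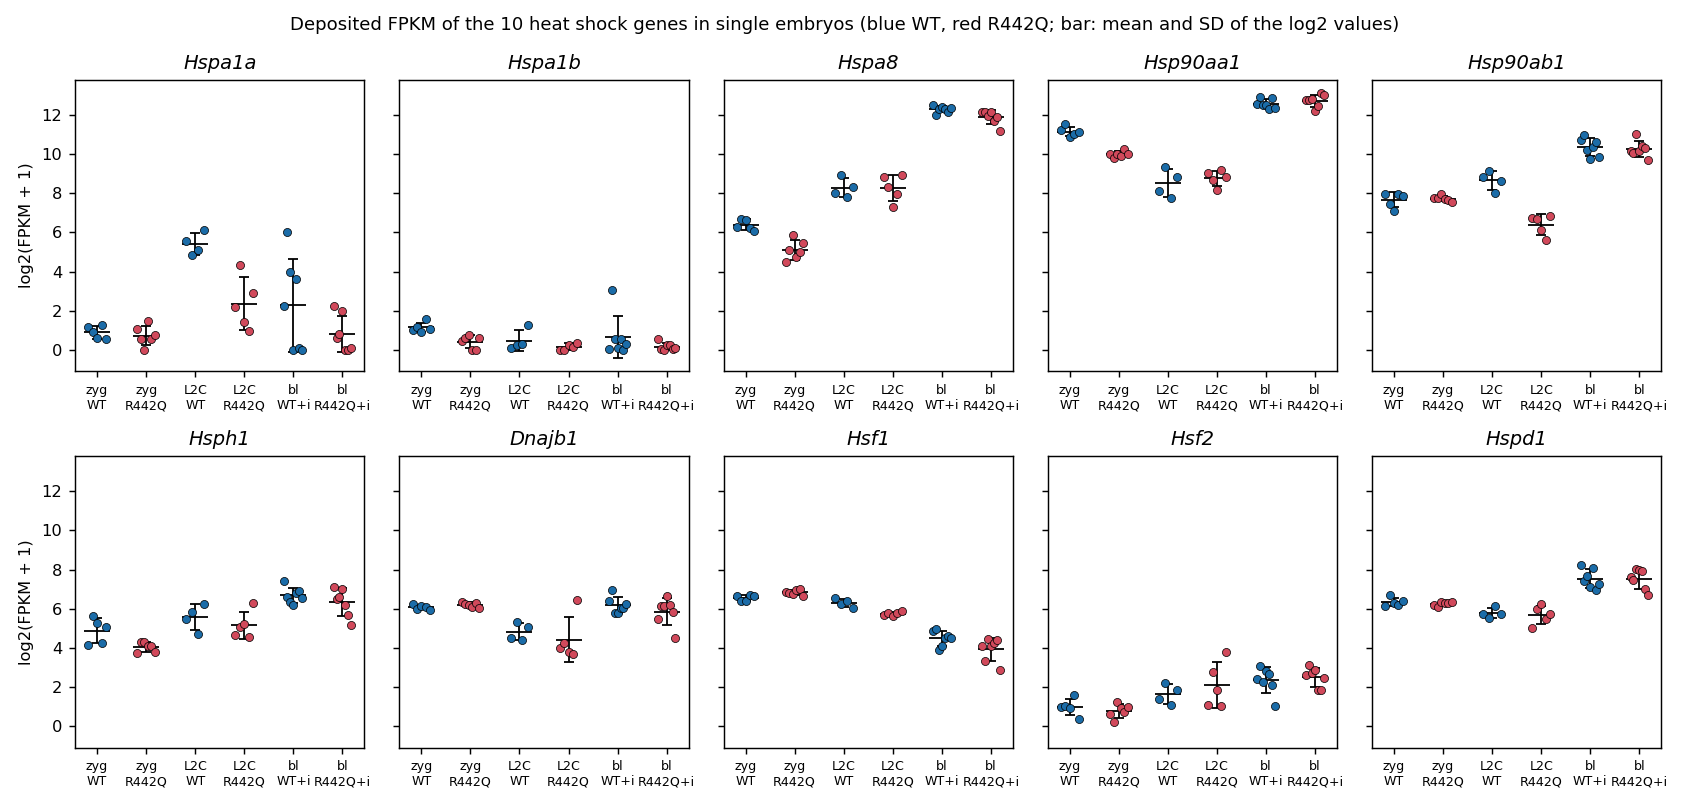
Deposited FPKM of each gene on a log2(FPKM + 1) axis, 1 point per embryo with the mean and SD of the log2 values, for zygotes (zyg), late 2-cell embryos (L2C) and inhibitor-treated blastocysts (bl), blue for WT and red for R442Q. Hspa8, Hsp90aa1 and Hsp90ab1 are highest in blastocysts, with means of 1266 to 6911 FPKM, while Hsf1 is lowest there, at 15.2 and 22.3.

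Hspa8 (ENSMUSG00000015656.17, GRCm38 chromosome 9, 40800984 to 40810087, plus strand) encodes the constitutive HSP70, HSC70, which most cells hold at high levels. In WT zygotes it measured 158, 217, 177, 153 and 140 CPM. R442Q zygotes held 44.0, 54.8, 119, 55.4, 64.0 and 91.6 CPM. All 6 lay below the lowest WT zygote, with replicate 3 nearest, and the described difference was -1.12 ± 0.20 (SE) on the log2 scale. By the late 2-cell stage the genotypes overlapped fully: WT embryos held 579, 1062, 509 and 726 CPM and R442Q embryos 981, 674, 328, 551 and 1086. The log2 difference was 0.12 ± 0.39 (adjusted p = 0.896), an estimate whose sign depended on the setting.

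Between these stages Hspa8 rose in both genotypes, by 2.03 ± 0.33 (SE) on the log2 scale in WT (edgeR, adjusted p = 1.3e-05) and by 3.18 ± 0.31 in R442Q embryos (adjusted p = 5.5e-09). Both calls held in every alternative run for the stage change, with adjusted p values up to 0.000430 in WT and 1.3e-06 in R442Q. Removal of length and GC trends was not among these alternatives. In FPKM, set side by side since each stage's table was normalised on its own, the means ran from 84.2 in WT zygotes over 323 in WT late 2-cell embryos to 5021 in WT blastocysts. R442Q means were 35.5, 333 and 3854. In blastocysts the log2(FPKM + 1) difference was -0.41 ± 0.16 (SE, limma, unadjusted p = 0.0226, adjusted p = 0.536), with WT embryos at 4112 to 5751 FPKM and R442Q embryos at 2288 to 4594. The lowest R442Q value was that of replicate 7, which was also the lowest R442Q blastocyst for Hsph1, Dnajb1, Hsf1 and Hspd1. That library held 8189 genes at 1 FPKM or more, the other R442Q blastocysts at least 10962 and WT blastocysts at least 9852. Without that embryo the Hspa8 difference was -0.29 (limma, adjusted p = 0.791), and the median over all genes moved from -0.097 to 0.0013. Hspa8 was the only member with an unadjusted p under 0.05 at that stage, and it did not pass the test.

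Dnajb1 (ENSMUSG00000005483.10, chromosome 8, 83608193 to 83612653, plus strand) encodes HSP40, a J-domain partner of HSP70. Zygotes of both genotypes held it evenly, at 191 ± 15.2 CPM (SD, n = 5) in WT and 210 ± 17.9 (n = 6) in R442Q. It fell towards the late 2-cell stage in WT (log2 change -1.27 ± 0.43 (SE), edgeR adjusted p = 0.0143) and in R442Q embryos (-1.53 ± 0.39, adjusted p = 0.00161). Late 2-cell WT embryos held 64.9, 112, 59.0 and 95.8 CPM, and R442Q embryos 42.3, 52.0, 36.6, 34.8 and 249. The 4 lower R442Q embryos lay under all WT embryos and replicate 5 lay above them. The log2 difference was 0.10 ± 0.57 with it (adjusted p = 0.942) and -0.91 ± 0.35 without it (adjusted p = 0.158), and its sign also turned with limma on FPKM (-0.39) and without WT replicate 1 (-0.058) or WT replicate 3 (-0.042). Blastocysts held 73.8 ± 23.8 FPKM in WT and 61.8 ± 24.8 in R442Q, which did not pass the test (limma adjusted p = 0.870).

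Hsph1 (ENSMUSG00000029657.15, chromosome 5, 149614287 to 149636376) encodes HSP110, which recharges HSP70. WT zygotes held 62.0 ± 17.9 CPM (SD, n = 5) and R442Q zygotes 35.8 ± 5.27 (n = 6), a described log2 difference of -0.66 ± 0.18 (SE) with overlapping ranges (38.4 to 83.0 against 29.3 to 44.5 CPM). In WT it rose to 134 ± 63.4 CPM (n = 4) at the late 2-cell stage (log2 change 1.06 ± 0.36, adjusted p = 0.0142). That call was lost without WT late 2-cell replicate 2 or replicate 4, with adjusted p up to 0.0954. In R442Q embryos the late 2-cell mean was 69.9 ± 38.4 CPM (n = 5) and the change 0.76 ± 0.33 (adjusted p = 0.0444), a call that 9 of 11 leave-one-out fits did not make, with adjusted p up to 0.195 without late 2-cell R442Q replicate 5. The late 2-cell genotypes did not differ by the test (-0.87 ± 0.45, adjusted p = 0.286), nor did blastocysts, at 105 ± 31.3 FPKM in WT and 87.1 ± 38.2 in R442Q (limma adjusted p = 0.848).

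Hsp90aa1 (ENSMUSG00000021270.13, chromosome 12, 110690605 to 110702728, minus strand), the stress-inducible HSP90 alpha, was the most abundant member in zygotes. WT zygotes held 2213, 2617, 1790, 1877 and 1970 CPM, and R442Q zygotes 974, 818, 962, 862, 1178 and 966. The groups were far apart, and the described log2 difference was -1.0 ± 0.11 (SE), between -1.06 and -0.93 when any 1 embryo was left out. This is the difference for which the gene was chosen. In transcript terms, Hsp90aa1 alone made up 0.339% ± 0.0559 (SD) of the summed FPKM of WT zygotes and 0.149% ± 0.0180 of that of R442Q zygotes.

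At the late 2-cell stage, WT embryos held 298, 709, 257 and 530 CPM and R442Q embryos 653, 562, 295, 621 and 656, overlapping ranges with a log2 difference of 0.41 ± 0.38 (SE, adjusted p = 0.587). The change of the genotype difference between the stages was not tested. The described log2 change from zygote was -2.27 ± 0.30 (SE) in WT and -0.96 ± 0.26 in R442Q. By mean, Hsp90aa1 was the highest member in blastocysts of both genotypes, at 6154 ± 1049 FPKM (SD, n = 7) in WT and 6911 ± 1423 in R442Q. Its WT range overlapped that of Hspa8. The log2(FPKM + 1) difference was 0.16 ± 0.16 (limma, adjusted p = 0.889). Of its 50-base stretches, 47.5% also occur elsewhere, chiefly in the pseudogene Gm12346, and adding such rows left the zygote difference at -1.0.

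Hsp90ab1 (ENSMUSG00000023944.14, chromosome 17, 45567775 to 45573271, minus strand), the constitutive HSP90 beta, is encoded by a separate gene. Zygotes of both genotypes were alike in level, 338 ± 79.6 CPM (SD, n = 5) in WT and 347 ± 29.2 (n = 6) in R442Q, with a described log2 difference of 0.16 ± 0.14 (SE). At the late 2-cell stage WT embryos held 722, 964, 438 and 704 CPM, and R442Q embryos 250, 247, 105, 116 and 270. Every R442Q embryo lay below every WT embryo. The gene fell in R442Q against WT (log2 difference -1.72 ± 0.38 (SE), edgeR adjusted p = 0.0225). The call was lost without WT replicate 2 (adjusted p = 0.0910) or WT replicate 4 (adjusted p = 0.0639), and adjusted p over the same 17 alternatives ran from 0.000172 to 0.0910. Only 3.44% of its 50-base stretches occur in another gene.

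Along development, Hsp90ab1 rose in WT embryos (log2 change 1.0 ± 0.28 (SE), edgeR adjusted p = 0.00403) and fell in R442Q embryos (-0.99 ± 0.26, adjusted p = 0.00209). The WT call was lost without late 2-cell WT replicate 2 (log2 change 0.61, adjusted p = 0.0913). The difference between these stage changes was not tested, because it contains the zygote comparison that chose members. In blastocysts the genotypes overlapped, at 1366 ± 419 FPKM (SD, n = 7) in WT and 1266 ± 407 in R442Q (log2(FPKM + 1) difference -0.11 ± 0.22 (SE), limma adjusted p = 0.953).

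The balance of the HSP90 forms within an embryo summarises this, as the log2 ratio of Hsp90aa1 to Hsp90ab1 in FPKM, a scale corrected for transcript length. It was 3.06 to 4.08 in WT zygotes and 2.04 to 2.62 in R442Q zygotes. In WT late 2-cell embryos it lay between -0.69 and 0.20, so that the forms were about equal. In R442Q late 2-cell embryos it was 1.97 to 3.58, above every WT embryo of that stage. In blastocysts it was 1.83 to 2.74 in WT and 1.76 to 3.33 in R442Q, and the genotypes overlapped. WT late 2-cell embryos were thus the group with no ratio above 0.20, and no embryo of any other group had a ratio under 1.76. The ratio was chosen after the values were seen, and is given without a test.

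**Figure D3:**
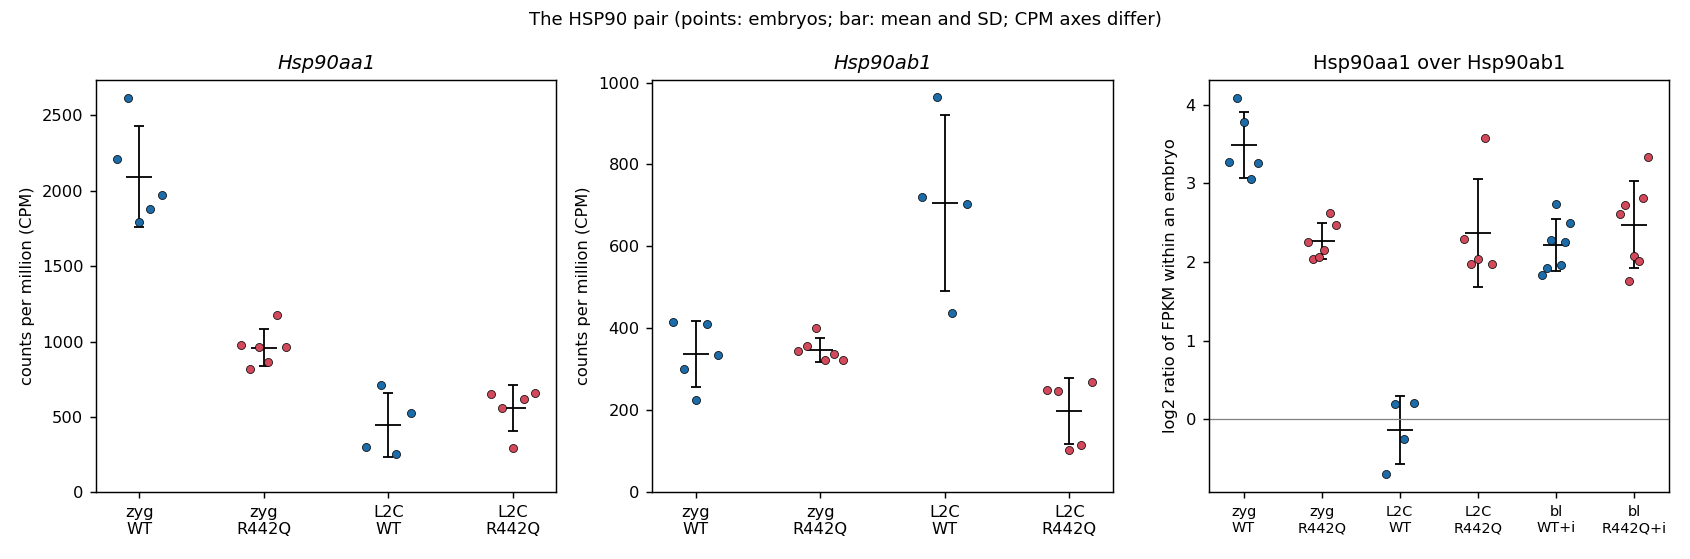
CPM of Hsp90aa1 and Hsp90ab1 in early embryos, and the log2 ratio of their FPKM within each embryo of the 3 stages, with the mean and SD of each group (blue WT, red R442Q). The ratio is -0.69 to 0.20 in WT late 2-cell embryos and 1.97 to 3.58 in R442Q late 2-cell embryos.

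Hsf1 (ENSMUSG00000022556.11, chromosome 15, 76477422 to 76501913, plus strand) encodes the main heat shock factor and was more abundant than Hsf2 in every group. WT zygotes held 180 ± 18.9 CPM (SD, n = 5) and R442Q zygotes 218 ± 22.5 (n = 6), a described log2 difference of 0.40 ± 0.12 (SE) with overlapping ranges. It fell between zygote and late 2-cell in R442Q embryos (log2 change -1.37 ± 0.16, adjusted p = 7.9e-08). In WT the change was -0.38 ± 0.17 and did not pass the test (adjusted p = 0.0559), but 7 of 14 alternatives without a replicate block called this fall, with adjusted p from 0.0117 to 0.166 over the 14. They included DESeq2 (0.0118), the fit of WT embryos alone (0.0208) and the fits without late 2-cell WT replicate 1, 2 or 3 or zygote WT replicate 2. Whether the genotypes differ in this change was not tested. Late 2-cell WT embryos held 160, 142, 159 and 124 CPM and R442Q embryos 93.7, 93.8, 84.4, 104 and 103, so the ranges did not overlap. This difference did not pass the test (log2 difference -0.50 ± 0.26, adjusted p = 0.286), and it became 0.31 when the trend with gene length and GC content was removed. A fit of both early stages together called it (adjusted p = 0.0273), and over all alternatives the adjusted p ran from 0.0273 to 0.646. Blastocysts listed 22.3 ± 5.99 FPKM in WT and 15.2 ± 5.56 in R442Q, which overlapped and did not pass the test (-0.57 ± 0.30, limma adjusted p = 0.732).

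Hsf2 (ENSMUSG00000019878.8, chromosome 10, 57486385 to 57513135, plus strand), the factor linked to development and germ cells, was low in zygotes. Means there were 2.34 ± 1.74 CPM (SD) in WT and 1.92 ± 1.14 in R442Q. Late 2-cell WT embryos held 4.04, 9.0, 2.93 and 6.72 CPM, and R442Q embryos 2.76, 14.3, 6.27, 2.36 and 32.1. The highest value again belonged to R442Q replicate 5, the embryo that was highest for Dnajb1 and had the deepest library of the stage. In R442Q embryos Hsf2 rose from zygote to late 2-cell (log2 change 2.39 ± 0.71 (SE), adjusted p = 0.00500). Without that embryo the change was 1.55 and the call was lost (adjusted p = 0.0538). The WT change of 1.23 ± 0.77 (adjusted p = 0.166) and the late 2-cell genotype difference of 1.11 ± 0.81 (adjusted p = 0.474) did not pass the test.

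Hspd1 (ENSMUSG00000025980.14, chromosome 1, 55077835 to 55088243, minus strand) encodes HSP60, the chaperonin of mitochondria, and shares its promoter region with Hspe1, the gene for its lid HSP10, on the opposite strand. Its group means in early embryos lay close together, at 110 ± 7.05 and 114 ± 9.86 CPM (SD) in WT and R442Q zygotes and 101 ± 22.8 and 95.4 ± 24.6 in late 2-cell embryos, where single embryos ranged from 61.2 to 133 CPM. The late 2-cell difference was -0.003 ± 0.29 (SE) on the log2 scale (adjusted p = 0.997). From zygote to late 2-cell, the R442Q change of -0.47 ± 0.18 passed the test (adjusted p = 0.0256) but not in 5 of 16 alternatives without a replicate block (adjusted p up to 0.0975), and the WT change of -0.21 ± 0.20 did not (adjusted p = 0.371). Blastocysts held 193 ± 67.2 FPKM in WT and 194 ± 62.1 in R442Q (log2(FPKM + 1) difference 0.002 ± 0.25, limma adjusted p = 0.9995). Of its stretches, 42.1% occur in other genes, chiefly the pseudogene Hspd1-ps3.

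**Figure D4:**
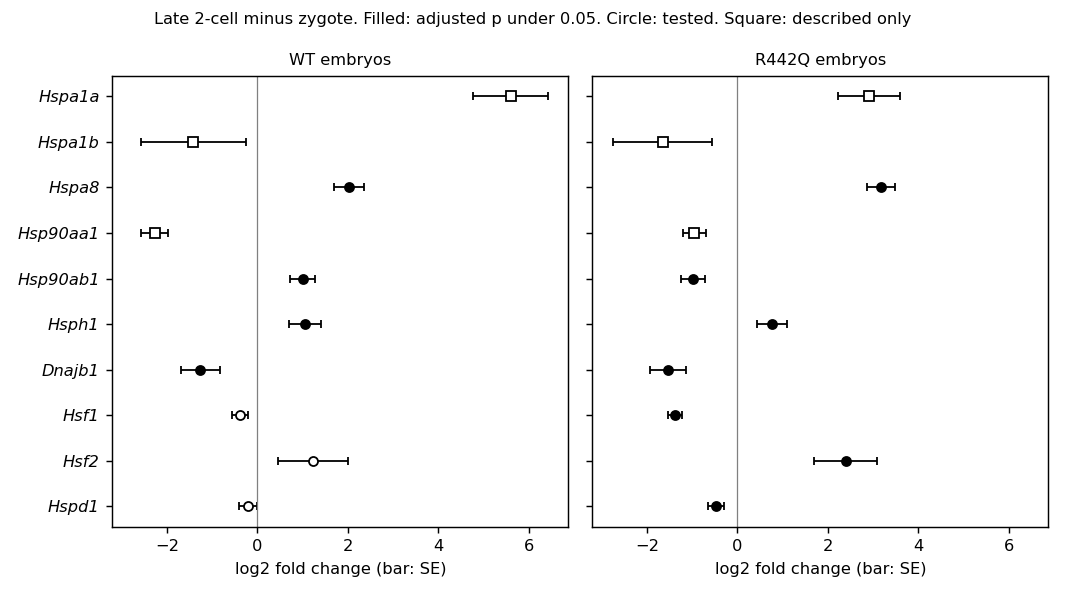
Log2 fold change from zygote to late 2-cell for each gene, with the SE, in WT and in R442Q embryos, where circles were tested, filled circles had an adjusted p under 0.05, and squares are genes described without a test. Hspa8 rose in both genotypes, and Hsp90ab1 rose in WT (1.0) and fell in R442Q (-0.99).

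Of the 7 members tested for the stage change, 4 were called in WT (3 higher, 1 lower) and 7 in R442Q (3 higher, 4 lower). Among all 16199 genes the called share was 61.2% in WT (36.2% higher, 25% lower) and 65.1% in R442Q (35.3% higher, 29.8% lower), so most genes changed between these stages. The medians over all genes were 0.34 and 0.22 on the log2 scale. With the median-ratio size factors of edgeR (RLE), the R442Q median moved to 0.34. It was 0.085 without late 2-cell R442Q replicate 3 and -0.026 in the fit of R442Q embryos alone. The WT median was 0.19 without late 2-cell WT replicate 1 and -0.013 in the fit of WT embryos alone. Stage changes of both genotypes are relative to a level that uncertain.

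For the genotypes at the late 2-cell stage, 9 members were tested, all except the low Hspa1b, and 2 were called, both lower (Hspa1a and Hsp90ab1). Over all 13883 genes 4.18% were called (1.22% higher, 2.95% lower). In place of 580 calls, there were 142 without WT replicate 2, 209 without WT replicate 4, 283 without WT replicate 3, 351 without WT replicate 1, 372 without R442Q replicate 2 and 891 without R442Q replicate 3. Ranges did not overlap for 3 of the 9 members, with R442Q below in each (Hspa1a, Hsp90ab1 and Hsf1), against 12.4% of all genes, 3.67% with R442Q above and 8.77% below. The median log2 difference of the 9 was -0.003, and that of all genes 0.07. With limma on FPKM the calls over all genes were 264 higher and 388 lower, and with length and GC trends removed 120 and 185, against 170 and 410 in the main test.

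In zygotes all 10 members passed the filter, 6 had a log2 difference below 0 and 4 above, and the median was -0.13 against 0.01 over all genes. Ranges lay apart for Hspa1b, Hspa8 and Hsp90aa1, each with R442Q below, but those of Hspa1a and Hspa1b added together overlapped. For the background, 13.2% of 12420 genes were called (6.3% higher and 6.92% lower, or 783 and 860 genes, against 411 and 1231 with limma on FPKM). Ranges lay apart for 9.39%, with R442Q above for 2.54% and below for 6.84%. Nothing is read from these shares, since this comparison chose members. Stage markers differed between the same zygotes. Oocyte markers summed to 4551 to 6234 FPKM in WT and 3198 to 4590 in R442Q, and Zp1, Zp2, Zp3 and Oosp1 lay lower in R442Q without overlap (Zp3 74.8 to 123 against 21.2 to 49.98 FPKM), while Bmp15 overlapped, with means of 1025 and 1053 FPKM. Of the 2-cell markers, Zscan4c, Zscan4d, Zscan4f and Usp17la lay higher in R442Q without overlap (Zscan4d 0.88 to 3.57 against 4.47 to 29.9 FPKM), while the most abundant members, Tcstv1 and Tcstv3, had lower means in R442Q (84.7 against 128 FPKM, and 25.6 against 39.1) with overlapping ranges. The sums of that list overlapped (107 to 208 and 84.9 to 217). The part of these differences in the zygote values of the members and of the other chaperone genes was not tested.

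In blastocysts 8 members were tested and 0 were called, with 1 at an unadjusted p under 0.05 (Hspa8). The limma test called 1 of 11297 genes (0.00885%), and every alternative run likewise called 0 members. Ranges overlapped for all 10 members, against 0.416% of genes with ranges apart (0.354% R442Q above, 0.062% below). Each blastocyst was lysed whole, so fewer cells of a type and less RNA per cell cannot be told apart there.

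**Figure D5:**
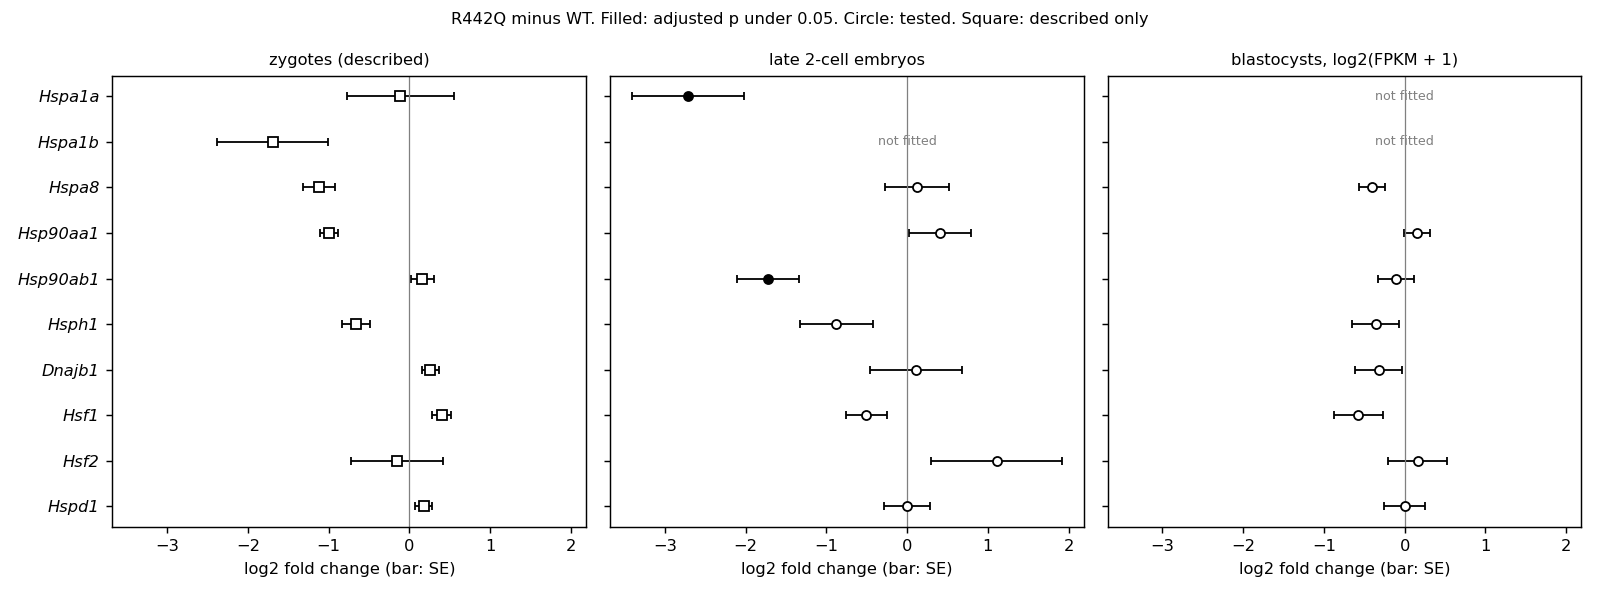
Log2 difference between R442Q and WT embryos for each gene with the SE, in zygotes (squares, described without a test), late 2-cell embryos and blastocysts (circles, filled where the adjusted p was under 0.05). Hspa1a and Hsp90ab1 are filled at the late 2-cell stage, at -2.72 and -1.72, and no blastocyst value is filled.

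Together the 10 genes made up 0.422% ± 0.0579 (SD, n = 5) of summed FPKM in WT zygotes, 0.226% ± 0.0194 (n = 6) in R442Q zygotes, 0.190% ± 0.0561 (n = 4) and 0.117% ± 0.0251 (n = 5) in late 2-cell embryos, and 1.25% ± 0.158 and 1.14% ± 0.122 (n = 7 each) in WT and R442Q blastocysts. In zygotes Hsp90aa1, chosen for being lower in R442Q, alone made up 0.339% of summed FPKM in WT and 0.149% in R442Q. The order of levels also changed. In WT zygotes Hsp90aa1 (2299 FPKM) stood apart from Hsp90ab1 (208), and Hsf1, Hspa8 and Hspd1 (93.7, 84.2 and 81.3) overlapped as neighbours. In WT late 2-cell embryos Hsp90ab1, Hsp90aa1 and Hspa8 (417, 398 and 323) overlapped at the top, and Hspa1a, last of the 10 in zygotes, had moved to the seventh place at 44.3 FPKM. R442Q late 2-cell embryos had Hsp90aa1 (444) and Hspa8 (333) at the top, and Hsp90ab1 (87.6) apart from them. In blastocysts Hsp90aa1 and Hspa8 led in both genotypes, and Hsf1 had dropped to the seventh place.

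Other chaperone genes were taken from a list of 76 genes for HSP70 and HSP90 relatives, chaperonins, J-domain proteins, exchange factors, co-chaperones, small heat shock proteins and heat shock regulators. In zygotes 61 were tested, and 17 were called (6 higher, 11 lower), which is 27.9% against 13.2% of all genes. The list was chosen with earlier results of these data known, so nothing is read from its shares here or below. Hspa4, an HSP110 relative, fell in R442Q (log2 difference -1.64 ± 0.21 (SE), edgeR adjusted p = 0.000233). Dnajc3, an inhibitor of the kinase PERK in the endoplasmic reticulum (ER), fell as well (-1.18 ± 0.17, adjusted p = 0.000530), as did the J-domain protein Dnajc7 (-0.84 ± 0.13, 0.000761) and Hsp90b1, the HSP90 of the ER (-1.08 ± 0.19, 0.00149). These 4 calls held in all 19 alternatives without a replicate block. Genes that rose included the HSP90 activator Ahsa1 (0.40 ± 0.10, 0.0101), the HSP70 co-chaperone St13 (0.46 ± 0.12, 0.0183), the exchange factor Bag3 (2.43 ± 0.66, 0.0226, on means of only 0.640 CPM in WT and 3.24 in R442Q) and the HSP90-bound phosphatase Ppp5c (0.97 ± 0.29, 0.0344). Bag3 passed the filter on counts through its R442Q embryos, since no WT zygote held more than 1.22 CPM, so its call supports nothing further. Each of the 4 rises was lost in at least 1 alternative, and the joint fit of both early stages called 5 of the list in place of 17. Leaving out 1 zygote gave counts down to 9, without WT replicate 2, and also moved the count by over 1.5 times without WT replicate 1 (10), WT replicate 3 (11) or R442Q replicate 5 (11).

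At the late 2-cell stage 66 of the list were tested, and 7 were called (3 higher, 4 lower), 10.6% against 4.18% of all genes. Hspa4 was lower again (-1.48 ± 0.34 (SE), adjusted p = 0.0275), with means of 48.2 ± 13.8 CPM (SD, n = 5) in R442Q and 141 ± 63.5 (n = 4) in WT. Dnajb2 (-2.16 ± 0.48, 0.0225), Dnajb12 (-2.12 ± 0.55, 0.0448), both J-domain proteins, and Hyou1, the HSP110 of the ER (-2.35 ± 0.57, 0.0345), also fell. Hspe1 rose (1.31 ± 0.32, 0.0367), where Hspd1, its partner across the shared promoter, did not change by the test. Dnajb14, a J-domain protein of the ER membrane, rose (1.75 ± 0.34, 0.0135) from a high level of 11630 ± 3734 CPM in WT to 37572 ± 15005 in R442Q. Whether reads of a repeat or of another transcript fall in that row was not checked, so these levels may not be those of Dnajb14 alone. Hspb1, the small heat shock protein HSP27, rose as well (1.51 ± 0.36, 0.0300). Adjusted p for these 7 genes reached 0.0792 to 0.229 in some alternative, and the count fell to 0 without WT replicate 2 and 1 without WT replicate 4, and was 2 to 4 without any 1 of the other embryos except R442Q replicate 3. In blastocysts 60 were tested and 0 were called (limma), with 4 at an unadjusted p under 0.05.

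From zygote to late 2-cell in WT, 67 of the list were tested, and 30 rose and 14 fell (65.7% against 61.2% of all genes). The largest rises by adjusted p were Dnajb9, a J-domain protein of the ER (log2 change 5.45 ± 0.32 (SE), adjusted p = 2.9e-12), Fkbp4, a co-chaperone of steroid receptors (4.56 ± 0.43, 5.2e-09), Bag5 (3.72 ± 0.38, 1.8e-08) and Hspb1 (3.60 ± 0.38, 3.0e-08). Dnajb4 (-4.54 ± 0.33, 1.0e-10), Dnajc7 (-1.60 ± 0.22, 1.2e-06), Hsf5, a heat shock factor of germ cells (-3.09 ± 0.50, 1.4e-05), and Hspa4l (-2.31 ± 0.40, 3.5e-05) fell. In R442Q embryos 29 rose and 18 fell (70.1% against 65.1%). These 8 WT calls held in all 14 alternatives without a replicate block.

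Across the 20 early embryos, the genes whose log2 CPM followed Hspa1a most closely among 16198 others were Hdac6 (Pearson r = 0.938), Ddx21 (0.932), Neu1, Ankrd54 and Nop53. These points share the same stages and groups, which all such values carry. After the group means were taken out, Enoph1 (0.788), Slc18b1, Hdac6 (0.766), Morf4l1 and Gm42031 were nearest. For Hsp90aa1 they were Pcgf1 (0.934), Rpl37rt, Wdr53, Elobl and Psma2, and after removal of group means Apol7e (0.903), Trmt112, Psmd11, Pa2g4 and Brf2. Among members, the deviations of Hsp90aa1 went with those of Hspa8 (r = 0.723) and Hsp90ab1 (0.655). The correlations describe these libraries, which differ in depth and share a scaling, and carry no test.

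By group means each stage held its markers, but the marker sums did not set every late 2-cell embryo apart from zygotes. The 2-cell marker sum of WT late 2-cell embryos went down to 132 FPKM, within the 107 to 208 of WT zygotes. The oocyte marker sum of R442Q late 2-cell embryos reached 6910 FPKM, above the highest zygote sum of 6234. Total counts were 7183632 to 11296522 for zygotes, and 5727956 to 8916343 for late 2-cell embryos. Chek1, the row of the injected mRNA, measured 4123 to 9079 FPKM in zygotes and 253 to 905 in late 2-cell embryos. In blastocysts it was down to 7.05 to 38.3 FPKM in WT and 13.3 to 23.6 in R442Q. All 7 oocyte and zygote markers had a mean of at least 1 FPKM in zygotes. So did all 7 2-cell markers in late 2-cell embryos, and also in R442Q zygotes, and all 10 blastocyst markers in blastocysts. Of 10 cumulus cell markers, 1 or 2 in each group reached that mean (Cyp19a1 in zygotes, Amhr2 and Tnfaip6 in late 2-cell embryos, Amhr2 in blastocysts), and Inha, Fshr and Lhcgr were at 0 in all late 2-cell embryos. Beside the late 2-cell results stand these differences: oocyte markers summed to 1228 to 3137 FPKM in WT and 1660 to 6910 in R442Q, 2-cell markers to 132 to 1541 and 754 to 2989, and all FPKM to 712234 to 742246 and 814376 to 976830, the last without overlap. Their part in the lower Hspa1a and Hsp90ab1 was not tested.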

How the data were processed

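Single embryos were grouped by their titles. Per the submitters' processing notes the authors used RSEM and the mouse build mm10, and the version, annotation and strand setting are not given in the sources used here. For zygotes and late 2-cell embryos the authors deposited estimated counts per gene symbol (90.7% and 89.9% of cells whole numbers), and for all 3 stages they deposited FPKM, normalised to length and library size in each table. Blastocyst depth is unknown. Of the symbols, 98.4%, 98.4% and 92.1% occurred in GENCODE M21 (GRCm38), which gave identifiers and positions.

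Counts were rounded and fitted in R 4.3.3 with edgeR 4.0.16 (filterByExpr with a minimum count of 10, TMM, quasi-likelihood test), each stage alone, and both early stages together for the stage change. For blastocysts, log2(FPKM + 1) entered limma 3.58.1 (trended variance), keeping genes that reached an FPKM of 1 in at least 7 embryos. Calls needed p under 0.05 after Benjamini-Hochberg adjustment over all genes, and the code was tested on simulated data. Alternatives were DESeq2 1.42.0, RLE factors, no filter, a robust fit, FPKM, a pseudocount of 0.1, embryo weights, TMM scaling of FPKM, a joint fit, removal of length and GC trends, a replicate block and leaving out each embryo. Not each was run for every comparison: the stage change was not fitted on FPKM, with a robust fit or with length and GC trends removed. Adding the rows that share at least 5% of a member's 50-base stretches was chosen after seeing the data.

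The members and gene lists were chosen with earlier results of these data known. Named from the list of other chaperones were, for the genotype comparison of each stage and the WT stage change, up to 4 genes in each direction by smallest adjusted p, and for Hspa1a and Hsp90aa1 the 5 genes with the highest Pearson r of log2 CPM (prior count of 2). Promoter sequences are from RefSeq (GRCm38.p6).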

Additional observations from a re-analysis of the deposited data

Results flagged for a closer look

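Of 60 groups of member values, 1 gene in 1 group of embryos each, 7 held an embryo far from the others by Dixon's test. About 1 of 20 groups of normally distributed values would pass its limit by chance. CPM and FPKM were not logged here and can be skewed, so these 7 values are not read as an excess. Blastocyst WT replicate 2 held 3 of these values: 63.2 FPKM for Hspa1a (next embryo 14.5), 7.44 for Hspa1b (next 0.460) and 122 for Dnajb1 (next 82.8). The inducible HSP70 pair and its J-domain partner were thus highest in the same embryo, and that embryo also held the highest WT value of Hsp90aa1 (7723 FPKM), Hsp90ab1 (2032), Hsf1 (30.8) and Hsf2 (7.40), but the lowest of Hspa8 (4112). The highest WT values of Hsph1 (167 FPKM) and Hspd1 (295) were in another embryo, replicate 1.

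In late 2-cell embryos, R442Q replicate 5 stood apart for Dnajb1 at 249 CPM (next 52.0), WT replicate 4 for Hspa1b at 3.83 CPM (next 0.605), and R442Q replicate 3 for Hsp90aa1 at a low 295 CPM (next 562). Among zygotes, R442Q replicate 2 was low for Hspd1 at 94.7 CPM (next 116).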

How the results depend on the processing

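The stage changes of Hspa8 and Dnajb1 kept their direction and stayed past the threshold in every alternative run in both genotypes, as did those of Hsp90ab1 and Hsf1 in R442Q embryos. The late 2-cell count of 2 called members was 1 with length and GC trends removed, 0 with the replicate block (Hspa1a -3.68, adjusted p = 0.0790, and Hsp90ab1 -1.96, adjusted p = 0.0524) and 0 to 2 with 1 embryo left out. Of the other chaperone genes, 7 called at that stage became 13 with DESeq2, 15 in the joint fit, 3 with trends removed, 0 with the replicate block and 0 to 8 with 1 embryo left out. In zygotes 17 became 5 in the joint fit, 11 with the replicate block and 9 to 17 with 1 embryo left out. Over all genes the joint fit called 270 in zygotes in place of 1643 and 2507 in late 2-cell embryos in place of 580, and in the latter DESeq2 called 1664, no filter 889, removed trends 305 and the replicate block 58. In blastocysts 1 became 5 with TMM or embryo weights, 0 with no filter or the replicate block, and 30 without WT replicate 7. The cause was not tested. By the numbers in the titles, deviations of same-numbered embryos correlated at -0.20 to 0.25, and only blastocysts 4, 5 and 6 and zygote 5 matched their own number best. By the sample numbers in the count tables they correlated at -0.15 to 0.042. Not every pair was above 0.1 at any stage, so the numbers were not taken to pair embryos.

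Small late 2-cell differences changed sign. With trends removed Hspa8 was -0.059, Hsp90aa1 -0.044, Hsf1 0.31 and Hspd1 0.080, with FPKM Hspa8 was -0.0066 and Dnajb1 -0.39, and with the replicate block Hspa8 was -0.16 and Dnajb1 -0.88. Leaving out 1 embryo gave -0.064 to 0.38 for Hspa8, -0.91 to 0.29 for Dnajb1 and -0.10 to 0.14 for Hspd1. In blastocysts it gave -0.061 to 0.28 for Hsf2 and -0.089 to 0.14 for Hspd1, and embryo weights gave -0.11 for Hspd1. FPKM rescaled to 1 sum in every embryo (TPM) lowered the step from WT late 2-cell embryos to WT blastocysts on the log2(mean FPKM + 1) scale, for Hspa8 from 3.95 to 3.45, Hsp90ab1 from 1.71 to 1.23, Dnajb1 from 1.36 to 0.88, Hspd1 from 1.80 to 1.32 and Hsf1 from -1.77 to -2.25. The same step was lowered for the other members too. It went from 3.95 to 3.46 for Hsp90aa1, 1.06 to 0.59 for Hsph1 and 0.74 to 0.38 for Hsf2. For Hspa1a it went from -1.66 to -2.13 and for Hspa1b from 0.62 to 0.44. Low counts limit the precision of Hspa1b and Hsf2.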
